A study of Mus musculus with 6 samples.

Results

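Mx1, Mx2, Rsad2, Cmpk2, Bst2, Ifi44, Rtp4, Xaf1 and Samhd1 are antiviral and pro-apoptotic effector genes of the interferon response. They were picked by symbol from the deposited expression table of infarcted mouse hearts. All 9 symbols were present among the 26012 genes listed, and all 9 were among the 21126 genes with a mean of at least 1 normalized count that were tested. RNA was sequenced from ventricles of 6 male C57BL/6 mice, aged 8 weeks at surgery, all with an MI made by tying off the left anterior descending artery. During surgery 3 hearts received control mimic and 3 received miR-19a/19b mimic, 10 μg per heart by intra-cardiac injection, and tissue was taken on day 4 after MI. Mimics are manufactured double-stranded RNAs that cells load and use like a mature miRNA. All groups carried an infarct, so the values compare mimics in injured hearts, and the question asked was how miR-19a/19b alters gene expression early after MI. Whole ventricular tissue was used, in which fewer cells of a type and less RNA per cell cannot be told apart.

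Interferons bind receptors that activate the kinases Jak1 and Tyk2, which phosphorylate transcription factors such as Stat2. Stat2 and Irf9 belong to a complex that enters the nucleus and binds the interferon-stimulated response element (ISRE), a short DNA motif in the promoters of antiviral genes. Effector genes then act at different steps of infection, from entry and genome replication to the release of particles. In the infarcted heart, DNA and RNA from dying cells can start this response without a virus, and infiltrating macrophages are a known site of it.

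The mature miR-19a and miR-19b sequences, which the mimics are named for, are shown because their seed (bases 2 to 8) sets which transcripts a miRNA can pair with. Mature sequences are from RefSeq on GRCm38.p6, written 5′ to 3′ with the seed in capitals.
mmu-miR-19a-3p, chr14:115044048-115044070, plus strand: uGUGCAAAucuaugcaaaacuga
mmu-miR-19b-3p, chr14:115044358-115044380, plus strand: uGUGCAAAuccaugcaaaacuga
The same miR-19b-3p sequence is also encoded at chrX:52741991-52742013 on the minus strand. The 23-base sequences share their seed and differ at 1 position, U11C, with the base of miR-19a first and positions counted from 1 at the 5′ end.

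Promoter windows of 6 of the 9 genes, running from 250 bases before the gene start to 50 after it, were in the RefSeq table (GRCm38.p6). They were searched on both strands for a core of interferon regulatory factor binding (AANNGAAA, the IRF core), for the longer ISRE core (AAANNGAAA, which always contains an IRF core) and for the gamma-activated site (GAS, TTCNNNGAA). Among 27025 promoter windows of the same length, 24.2% held an IRF core, 10.7% an ISRE core and 8.47% a GAS. The ISRE core was found in Rsad2 (2 matches), Bst2 (2 matches), Ifi44 (1 match) and Xaf1 (1 match), and these 4 windows are shown from 170 bases before the gene start to 50 after it, with IRF and ISRE cores in capitals.
Rsad2, chr12:26456403-26456622, minus strand: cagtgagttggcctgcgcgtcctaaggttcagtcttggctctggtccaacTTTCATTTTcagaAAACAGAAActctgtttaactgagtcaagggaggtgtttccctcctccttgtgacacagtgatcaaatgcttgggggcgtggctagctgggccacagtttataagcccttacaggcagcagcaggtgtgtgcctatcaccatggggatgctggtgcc
Bst2, chr8:71537423-71537642, minus strand: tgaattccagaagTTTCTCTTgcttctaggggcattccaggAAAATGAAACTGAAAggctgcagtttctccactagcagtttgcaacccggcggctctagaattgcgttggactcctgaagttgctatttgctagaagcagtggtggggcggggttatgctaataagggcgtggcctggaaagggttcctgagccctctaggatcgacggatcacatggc
Ifi44, chr3:151749861-151750080, minus strand: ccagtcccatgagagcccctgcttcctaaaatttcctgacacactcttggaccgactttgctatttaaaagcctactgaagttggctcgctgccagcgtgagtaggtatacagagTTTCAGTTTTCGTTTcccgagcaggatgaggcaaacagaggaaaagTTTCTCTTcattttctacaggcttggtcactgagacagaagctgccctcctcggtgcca
Xaf1, chr11:72301459-72301678, plus strand: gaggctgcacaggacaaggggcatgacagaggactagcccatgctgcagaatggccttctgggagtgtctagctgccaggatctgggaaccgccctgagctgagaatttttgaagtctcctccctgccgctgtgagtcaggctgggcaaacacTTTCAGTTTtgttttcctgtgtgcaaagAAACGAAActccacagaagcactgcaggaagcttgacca
In Bst2 the ISRE cores overlapped each other in one run, and a GAS began 136 bases before the start. Neither core was found in the windows of Cmpk2 and Samhd1. Samhd1 held a GAS that began 235 bases before its start. A match describes letters in the window and is no measurement of binding. Mx1, Mx2 and Rtp4 were not analysed here for promoter motifs.

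**Figure D1:**
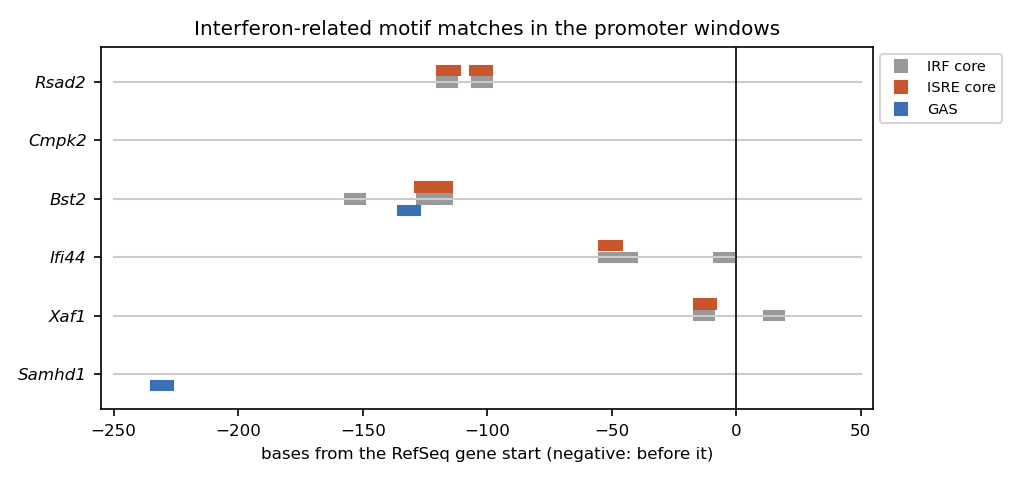
Motif matches in the 300-base promoter windows of 6 effector genes, with bases from the RefSeq gene start on the x axis and 1 line per gene. Bars mark the IRF core (grey), the ISRE core (orange) and the GAS (blue), and the ISRE cores of Rsad2 and Bst2 lie farther from the start than those of Ifi44 and Xaf1.

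Between 19398196 and 23645308 reads were counted on genes per heart. The values are normalized read counts, each gene's reads over the size factor of that heart (0.905 to 1.16), and the 9 genes rested on 92 to 5150 reads per heart. Cardiomyocyte markers were high in every library, as the ventricular label states. miR-19a/19b mimic replicate 1 stood apart by 7 skeletal muscle markers that summed to 2525 normalized counts, against 22.4 to 59.6 in the other 5 hearts. miR-19a/19b mimic replicate 3 stood apart by a cardiomyocyte marker sum of 296170, against 482786 to 868929 in the other 5 hearts, and it had the highest macrophage (99124) and neutrophil (2583) marker sums. Differences were fitted with limma on log2(normalized count + 1) over all genes tested, with p-values adjusted by the Benjamini-Hochberg method. The methods call the 3 hearts of a group biological replicates, and an exact permutation test of 3 hearts against 3 cannot give a p below 0.1.

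All 9 effector genes had lower mean levels in miR-19a/19b mimic hearts, at 45.1% to 80.5% of the control mean. Their median log2 difference (miR-19a/19b mimic minus control mimic) was -0.63, beside 0.0041 over all genes tested. All 9 were lower at an unadjusted limma p under 0.05, where 2.63% of all genes tested were. The 9 genes were chosen with earlier results of these data known, so counts over them are a description and no test. In 8 of the 9, every miR-19a/19b mimic heart lay below every control heart, where 5.3% of all genes did. At an adjusted p under 0.05 limma called 0 of the 9 and 0 of all 21126 genes, of which 555 were lower and 293 higher at an unadjusted p under 0.05. The smallest adjusted p among all genes was 0.396. On reads recovered from the deposited values, DESeq2's Wald test called 1 of the 9, Ifi44, among 28 lower genes (0.133% of those tested) and 1 higher gene. The edgeR exact test likewise called Ifi44, among 28 lower genes (0.133%) and 2 higher genes, and the edgeR quasi-likelihood test called 0 genes.

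**Figure D2:**
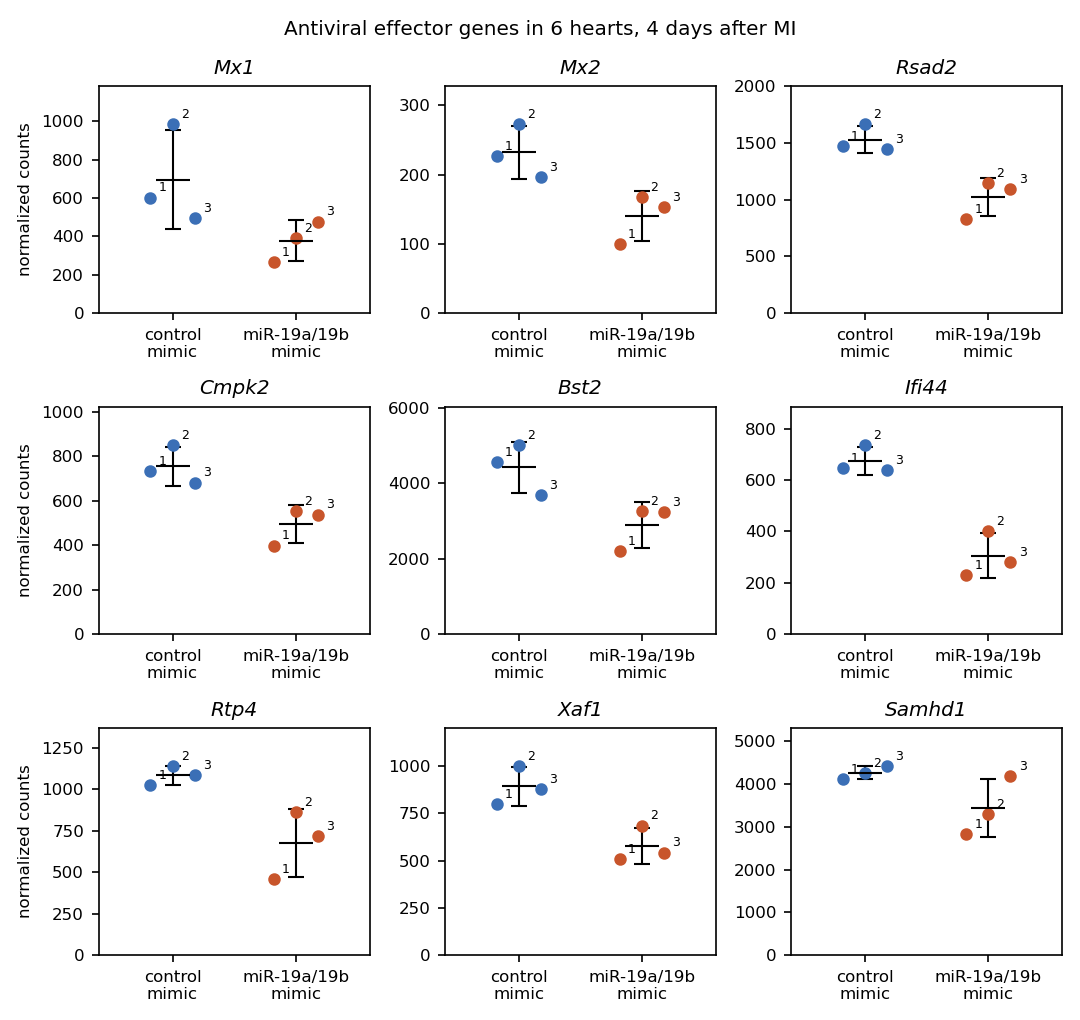
Normalized counts of the 9 effector genes on linear axes from 0, 1 panel per gene, with control mimic (blue) and miR-19a/19b mimic (orange) hearts as points numbered by replicate, and lines for the group mean ± SD (n = 3). The groups are separate in every panel except Samhd1, where miR-19a/19b mimic replicate 3 (4181) lies above control mimic replicate 1 (4118).

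Mx1 and Mx2 encode dynamin-like GTPases that form rings around viral nucleoprotein complexes, Mx1 acting in the nucleus in mice and Mx2 in the cytoplasm. C57BL/6 is among the inbred strains with defective Mx genes, and RefSeq lists both as transcribed pseudogenes, so the values describe transcripts and not working proteins. Mx1 (ENSMUSG00000000386, chr16:97447035-97462907, minus strand, GRCm38) had 601, 987 and 495 normalized counts in control mimic replicates 1, 2 and 3, against 267, 390 and 477 in the miR-19a/19b mimic hearts in the same order. The groups were apart by little, since the lowest control heart was 1.04 times the highest miR-19a/19b mimic heart, and the controls spread most of the 9 genes. The means were 694 ± 259 and 378 ± 106 normalized counts (SD, n = 3 each), a log2 difference of -0.85 (SE 0.27, limma adjusted p = 0.9996). Mx2 (ENSMUSG00000023341, chr16:97535308-97560900, plus strand) had 227, 273 and 196 normalized counts in the controls and 99.0, 167 and 153 with miR-19a/19b mimic, and the groups did not overlap. Its means of 232 ± 38.8 and 140 ± 35.9 gave a log2 difference of -0.75 (SE 0.22, limma adjusted p = 0.9996). The genes lie 72400 bases apart on opposite strands, and their transcripts share 843 aligned bases at 95.3% identity, so reads may be split between them. The Mx1 to Mx2 ratio ran from 2.33 to 3.61 over the 6 hearts.

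Rsad2 encodes viperin, a radical SAM enzyme that converts CTP into a chain-terminating nucleotide. Cmpk2, the neighbour of Rsad2, encodes a mitochondrial kinase of CMP and UMP. Rsad2 (ENSMUSG00000020641, chr12:26442753-26456452, minus strand) had 1469, 1668 and 1448 normalized counts in control mimic replicates 1, 2 and 3. With miR-19a/19b mimic it had 828, 1142 and 1094. No heart of one group reached the other, and the lowest control was 1.27 times the highest miR-19a/19b mimic heart. The means of 1528 ± 121 and 1021 ± 169 differed by -0.59 on the log2 scale (SE 0.14, limma adjusted p = 0.806). Cmpk2 (ENSMUSG00000020638, chr12:26469204-26479835, plus strand) had 732, 851 and 681 normalized counts in the controls and 398, 553 and 537 with miR-19a/19b mimic. The groups were again separate, with the hearts in the same order within each group as for Rsad2. Its means were 755 ± 87.3 and 496 ± 85.0, a log2 difference of -0.61 (SE 0.15, limma adjusted p = 0.877). The genes are 12751 bases apart and transcribed away from each other. Rsad2 kept the closest ratio to Cmpk2 of the 36 pairs among the 9 genes, between 1.96 and 2.13 over the 6 hearts (highest over lowest 1.085). The 2 ISRE cores shown above lie before Rsad2, and the window of Cmpk2 held none.

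Bst2 encodes tetherin, a membrane protein that holds budding virus particles at the cell surface. Bst2 (ENSMUSG00000046718, chr8:71534264-71537437, minus strand) had 4561, 5026 and 3691 normalized counts in the controls and 2196, 3269 and 3244 with miR-19a/19b mimic. Every miR-19a/19b mimic heart was below every control, and replicate 1 was the lowest. The means of 4426 ± 678 and 2903 ± 613 gave a log2 difference of -0.62 (SE 0.18, limma adjusted p = 0.9996). Per kilobase of the gene length that the file lists, Bst2 had the highest level of the 9 genes, 5793 ± 887 normalized counts for the controls and 3800 ± 802 with miR-19a/19b mimic.

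Ifi44, an interferon-induced gene of less settled function with reported antiviral activity, had the largest difference of the 9. Ifi44 (ENSMUSG00000028037, chr3:151730922-151749960, minus strand) had 648, 738 and 640 normalized counts in control mimic replicates 1, 2 and 3, against 230, 402 and 282 in the miR-19a/19b mimic hearts. The groups were well apart, with the lowest control 1.59 times the highest miR-19a/19b mimic heart, the widest gap of the 9 genes. The means of 675 ± 54.4 and 305 ± 88.2 put the mimic group at 45.1% of control, a log2 difference of -1.18 (SE 0.19, limma adjusted p = 0.396). By p it ranked 7 of all genes tested. Its adjusted p was 0.000276 with DESeq2's Wald test, 0.000161 with the edgeR exact test and 0.415 with the edgeR quasi-likelihood test, so the call depended on the test.

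Rtp4 encodes a chaperone of G protein-coupled receptors that interferon induces and that also binds RNA of flaviviruses. Rtp4 (ENSMUSG00000033355, chr16:23609919-23614222, plus strand) had 1026, 1141 and 1086 normalized counts in the controls and 456, 860 and 716 with miR-19a/19b mimic. The controls were close to each other while the miR-19a/19b mimic hearts were spread, all of them below the controls. The means of 1084 ± 57.6 and 677 ± 205 gave a log2 difference of -0.73 (SE 0.20, limma adjusted p = 0.968). Its transcript shares 296 identical aligned bases with Gm45338, so its count is uncertain to that extent.

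Xaf1 encodes a protein that binds the inhibitor of apoptosis Xiap and relieves its block on caspases, and it is one of the genes that the study itself picked from these libraries for qRT-PCR. Xaf1 (ENSMUSG00000040483, chr11:72301629-72313733, plus strand) had 797, 1001 and 878 normalized counts in the controls and 506, 685 and 542 with miR-19a/19b mimic. Again no heart of one group reached the other. The means of 892 ± 103 and 577 ± 94.6 differed by -0.63 on the log2 scale (SE 0.14, limma adjusted p = 0.791). Of 14 genes for the partners of Xaf1 and for caspase-dependent death, fixed as a list, 0 were lower and 0 higher at an unadjusted p under 0.05, with a median log2 difference of -0.06 and a range of -0.15 to 0.21. With 2.63% of all genes lower at that threshold, a count of 0 in a list of this size is near the background and is no result about these genes. Xiap itself had 1851 ± 60.7 normalized counts for the controls and 1812 ± 45.3 with miR-19a/19b mimic. Stretches of the Xaf1 transcript match 41 other genes at 95% identity or more over 150 bases or more, the longest 197 bases.

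Samhd1 encodes a hydrolase that lowers the cell's pool of deoxynucleotides and so restricts reverse transcription in myeloid cells. Samhd1 (ENSMUSG00000027639, chr2:157097533-157135265, minus strand) had 4118, 4260 and 4426 normalized counts in the controls and 2834, 3293 and 4181 with miR-19a/19b mimic. Of the 9 genes it was the exception, since miR-19a/19b mimic replicate 3 lay within the range of the controls. The means of 4268 ± 154 and 3436 ± 685, at 80.5% of control, gave a log2 difference of -0.33 (SE 0.15, limma p = 0.0499, adjusted p = 0.9996) and an exact two-sided permutation p of 0.2. Without miR-19a/19b mimic replicate 3 the log2 difference was -0.48 (limma adjusted p = 0.0321), and without miR-19a/19b mimic replicate 1 it was -0.20 (limma unadjusted p = 0.184). Stretches of its transcript match 30 other genes by the same criteria as for Xaf1, the longest 209 bases, while no such match was found for Rsad2, Cmpk2, Bst2 or Ifi44.

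Samhd1 was also the only one of the 9 genes whose longest 3′ UTR in GENCODE M21 held a match to the miR-19 seed, against 18.4% of tested genes with a 3′ UTR. Matches counted were TTTGCAC, which pairs with the whole seed, and TTGCACA, which leaves out the last seed base and adds an A. The site, at chr2:157098068-157098075 on the minus strand (GRCm38), is an 8-base match, shown in capitals with its flanks because it pairs with the seed printed above.
Samhd1 3′ UTR site: tcacccccacTTTGCACAgctttaccag
The 8 other genes held none in their longest 3′ UTR, and their shorter 3′ UTRs were not searched. The part of seed matches in the levels of the 9 genes was not tested. A seed match is a description of letters, and binding of the mimic was not measured here.

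The order of the 9 levels per kilobase in control hearts was Bst2, Rtp4 (689 ± 36.6 normalized counts per kilobase), Samhd1 (466 ± 16.9), Rsad2 (353 ± 28.0), Cmpk2 (236 ± 27.3), Mx1 (190 ± 70.9), Xaf1 (190 ± 21.9), Ifi44 (110 ± 8.88) and Mx2 (64.2 ± 10.7). Mx1 did not differ from its neighbours Cmpk2 and Xaf1 beyond this spread, while the other neighbours differed by more than the sum of their SDs. With miR-19a/19b mimic the levels were Bst2, Rtp4 (431 ± 130), Samhd1 (376 ± 74.9), Rsad2 (236 ± 39.0), Cmpk2 (155 ± 26.6), Xaf1 (123 ± 20.2), Mx1 (104 ± 29.0), Ifi44 (49.7 ± 14.4) and Mx2 (38.6 ± 9.94). In that group Rtp4 and Samhd1, Cmpk2 and Xaf1, Xaf1 and Mx1, and Ifi44 and Mx2 lay within the sum of their SDs. Lengths are those listed by the file, which may exceed the transcripts in use.

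The median over the 9 of the log2 level relative to the control mean was -0.0542, 0.173 and -0.0748 in control mimic replicates 1, 2 and 3. With miR-19a/19b mimic it was -0.999, -0.425 and -0.484 in replicates 1, 2 and 3. miR-19a/19b mimic replicate 1 was the lowest heart of its group for 9 of 9 genes, and control mimic replicate 2 the highest of its group for 8 of 9. Without miR-19a/19b mimic replicate 1, the library with skeletal muscle transcripts, the median log2 difference was -0.46 in place of -0.63 and 8 of the 9 genes stayed lower at an unadjusted limma p under 0.05, the exception being Samhd1. Without this heart the log2 difference was -0.46 for Rtp4, against -0.73 with it, the most moved of the 8 genes whose groups do not overlap. It was -0.62 for Mx1, -0.52 for Mx2, -0.45 for Rsad2, -0.46 for Cmpk2, -0.43 for Bst2, -0.999 for Ifi44 and -0.54 for Xaf1. Mx1 also depended on control mimic replicate 2, its highest heart, without which its log2 difference was -0.57 in place of -0.85. Without miR-19a/19b mimic replicate 3, limma called 5 of the 9 at an adjusted p under 0.05, with adjusted p-values of 0.0312 for Rsad2, 0.0364 for Cmpk2, 0.0497 for Bst2, 0.0179 for Ifi44 and 0.0321 for Samhd1. In that fit, which leaves out the heart with the lowest cardiomyocyte sum, it called 154 lower and 361 higher genes of the 21126 tested.

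**Figure D3:**
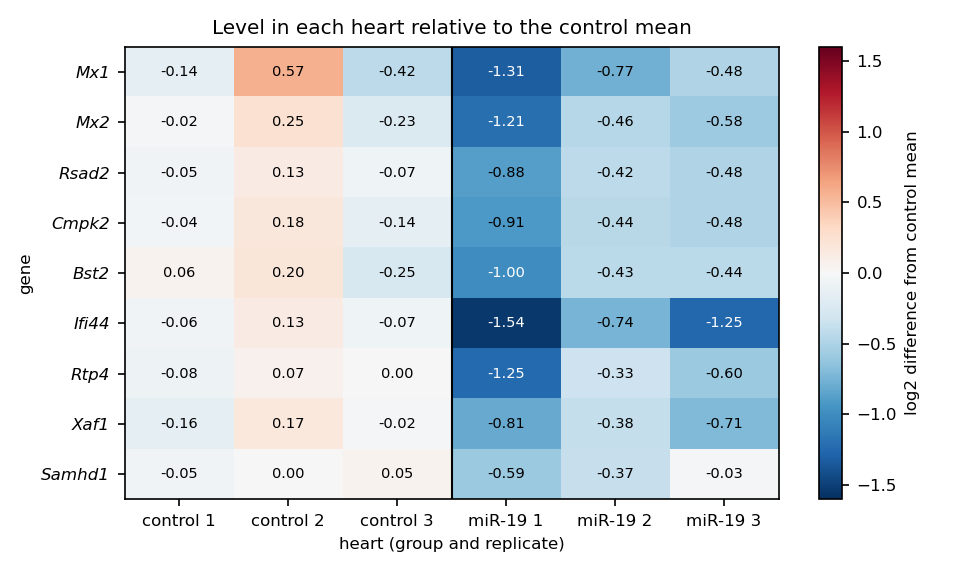
Log2 level of each effector gene in each heart relative to the control mean, with hearts in columns, genes in rows and blue for levels below that mean. The column of miR-19a/19b mimic replicate 1 (miR-19 1) holds the lowest value of every row, and Samhd1 in miR-19a/19b mimic replicate 3 is near the control mean (-0.03).

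The genes with the heart-to-heart profile closest to the median of the 9 were found by the root mean square difference of log2 levels, centred per gene, over the 6 hearts. Among 12729 other genes with a mean of at least 50, for which the median difference from the profile was 0.411, the 8 closest were Oas1a (0.0457), Dhx58 (0.0648), Trim30a (0.0696), Parp14 (0.0819), Gbp3 (0.0844), Stat2 (0.0886), Oasl2 (0.0906) and Phf11d (0.0913). Oas1a, an enzyme that makes the 2-5A signal for RNA decay, had 1149, 1392 and 1149 normalized counts in the controls and 573, 864 and 887 with miR-19a/19b mimic. Of these 8 genes, 5 were also in the pathway list below, and the 6 hearts share depth and tissue makeup across genes, so the likeness is a description.

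The pathway around the effectors was listed by role as 56 genes, of which 51 were in the table and 50 were tested. Of these, 27 were lower and 0 higher at an unadjusted limma p under 0.05, and none passed at an adjusted p. Over all genes tested 2.63% were lower at that threshold. This list too was chosen with earlier results of these data known, so its counts are a description. The median log2 difference was -0.41 for the pathway genes and 0.0041 for all genes tested. Of 8 listed ligands, 3 had a row in the table and 2 were tested, and Ifna4, Ifna2, Ifna5, Ifnk and Ifne were not analysed here. Ifnb1, which encodes interferon beta, had 5.86 normalized counts in control mimic replicate 2 and was listed at 0 in the other 5 hearts, and Ifng, which encodes interferon gamma, had 0.93 to 2.06 in all 6 hearts. Il15, a cytokine that sustains NK cells, had 183 ± 12.9 normalized counts in controls and 215 ± 53.9 with miR-19a/19b mimic, a log2 difference of 0.20 (SE 0.20). For Il15 the value with miR-19a/19b mimic replicate 3 left out was 0.43 (limma adjusted p = 0.13). Of 4 receptor genes and 3 kinase genes, 0 were lower at an unadjusted limma p under 0.05. Every miR-19a/19b mimic heart was below every control for Ifngr1 (log2 difference -0.21, SE 0.10), Jak1 and Jak2 (-0.15, SE 0.09). The same held for 5.3% of all genes tested. Ifnar1, the first chain of the type I interferon receptor, had 1842 ± 196 normalized counts in controls and 1824 ± 295 with miR-19a/19b mimic. Jak1 differed by -0.07 (SE 0.10) and Tyk2 by -0.10 (SE 0.10) on the log2 scale, both with unadjusted limma p above 0.05.

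Among the transcription factor genes of the list, those lower at an unadjusted limma p under 0.05 included Irf7, the amplifier of interferon induction (log2 difference -0.73, SE 0.17), Stat2 (-0.59, SE 0.14) and Irf9 (-0.33, SE 0.12). Irf1, Irf3, Irf5 and Irf8 were between -0.20 and 0.07. Of 6 negative regulators, 1 was lower, Usp18, which removes Isg15 and blocks the type I receptor (-0.84, SE 0.21). Socs1, a feedback inhibitor of Jak kinases, differed by -0.27 (SE 0.31). Of 27 other interferon-induced genes, 22 were lower, against 2.63% of all genes tested, and their median log2 difference was -0.57. Among them Ifit1, which binds viral RNA caps, differed by -1.05 (SE 0.22) and Oas3 by -0.93 (SE 0.16), and Ifit2 had the smallest limma p of the list, 0.000165. In DESeq2 and in the edgeR exact test Ifit1, Ifit2, Ddx60 and Oas3 had adjusted p-values under 0.05.

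Genes related to the 9 by family or by chemistry were listed beside them. Of 15 tested relatives, such as Dnm1, Dnm2 and Opa1 (dynamin family, as Mx1), Cmpk1 (a cytosolic kinase, as Cmpk2) and Lias (a radical SAM enzyme, as Rsad2), 0 were lower and 0 higher at an unadjusted limma p under 0.05. Their median log2 difference was 0.0049 and their range -0.32 to 0.57. Of 14 genes of nucleotide supply, 0 were lower and 0 higher, with a median of 0.03 and a range of -0.22 to 0.22. Lists of this size would be expected to hold few or no calls at the background of 2.63% lower genes, so these counts are a description. Rrm1 and Rrm2, the subunits of ribonucleotide reductase that build the pool Samhd1 lowers, differed by -0.02 (SE 0.12) and 0.03 (SE 0.17).

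**Figure D4:**
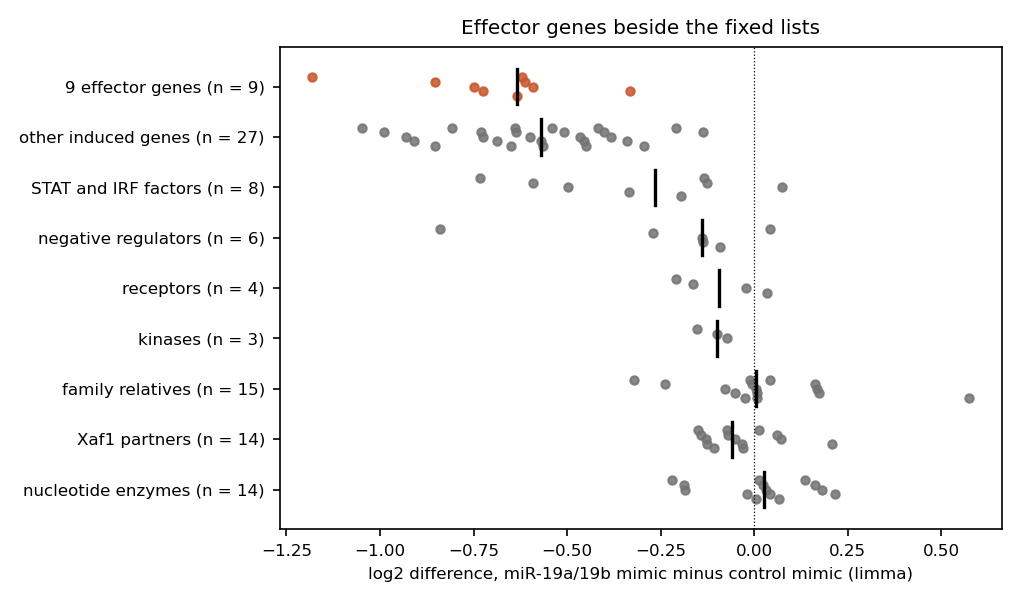
Log2 differences (miR-19a/19b mimic minus control mimic, limma) of the genes in each list, with 1 point per tested gene and the list median as a vertical line. All 9 effector genes and all 27 other interferon-induced genes lie below 0, and the relatives, Xaf1 partners and nucleotide enzymes lie on both sides of 0.

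Markers of the cell types that infarcted ventricles can hold were summed per heart. Inflammatory monocyte markers (6 genes) summed to 8091 to 9644 normalized counts in the controls and 5694 to 7146 with miR-19a/19b mimic, without overlap. Of the 6, 4 were lower at an unadjusted limma p under 0.05, where 2.63% of all genes tested were. Ly6c2 differed most among the 6 markers, by -1.77 (SE 0.26), and Vcan least, by -0.19 (SE 0.10). Vcan had the highest counts of the 6 and so weighs most in the sum. Chil3 differed by -0.35 (SE 0.24), with overlapping hearts. T cell markers (8 genes) summed to 260 to 367 and 198 to 224, and NK cell markers (6 genes) to 175 to 313 and 93.6 to 150, also without overlap. Of these, 3 of the 8 T cell and 4 of the 6 NK cell markers were lower at that threshold. Macrophage markers (9 genes) summed to 78734 to 92222 and 65423 to 99124. Cardiomyocyte markers (8 genes) summed to 482786 to 629133 and 296170 to 868929, and neutrophil markers (7 genes) to 1698 to 2037 and 838 to 2583. All of these overlapped, through miR-19a/19b mimic replicate 3 alone. In replicates 1 and 2 of that group the macrophage sums (65423 and 75586) and neutrophil sums (838 and 1456) were below every control. Their cardiomyocyte sums (868929 and 771735) were above every control. Cd163 was the 1 macrophage marker higher at that threshold (log2 difference 0.61, SE 0.21), and Retnlg the 1 neutrophil marker lower (-1.52, SE 0.61). B cell, endothelial and fibroblast sums also overlapped, and no marker was at 0 in all hearts. The plasmacytoid dendritic cell sum was nearly all Cox6a2 (6463 ± 929 and 8479 ± 4359 normalized counts) and Tcf4 (3542 ± 156 and 3524 ± 256), and so gives no measure of that cell type. Siglech, the more specific marker, had 21.5 ± 4.89 normalized counts in the controls and 13.4 ± 4.42 with miR-19a/19b mimic, a log2 difference of -0.67 (SE 0.35) with overlapping hearts. The part of these cell types in the lower effector levels was not tested.

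**Figure D5:**
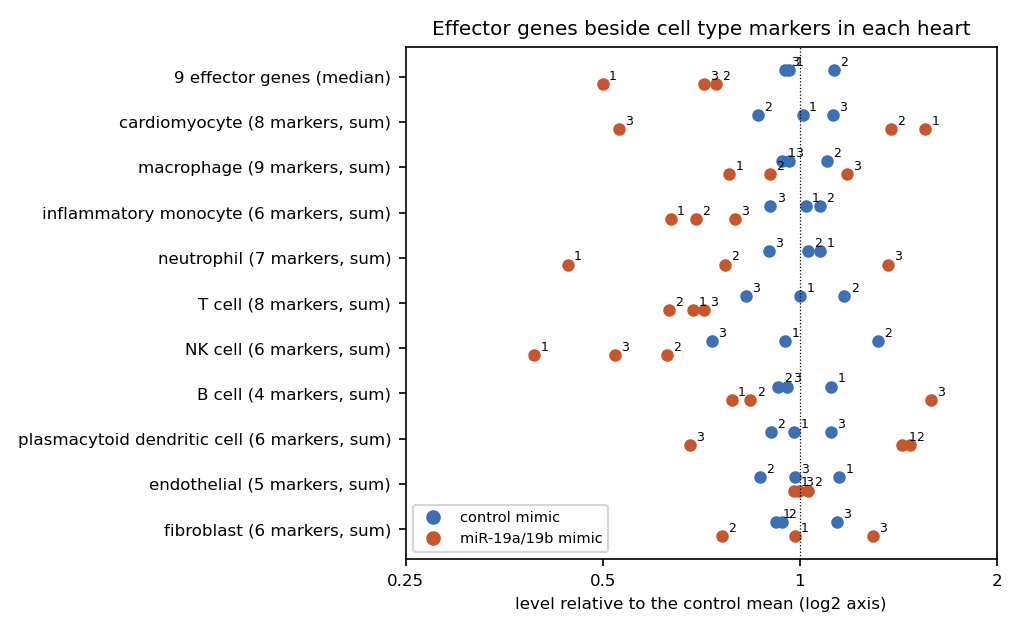
Level relative to the control mean, on a log2 axis, of the 9 effector genes (median) and of summed markers of each cell type, with 1 point per heart labelled by replicate. The effector genes, monocytes, T cells and NK cells separate the groups. The macrophage and cardiomyocyte sums overlap between the groups only through miR-19a/19b mimic replicate 3. The plasmacytoid dendritic cell sum is mostly Cox6a2 and Tcf4.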

How the data were processed

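RNA-seq was made from 3 control mimic and 3 miR-19a/19b mimic hearts. The deposited values are a signal per gene, namely counts that the authors divided by a size factor of each library, after alignment with STAR 2.5.1b and counting with HTSeq 0.6.0. The labels also name DESeq2 1.10.1, while the methods name edgeR. The use of strand in counting is not given in the sources used here. The labels name mm9, but 82.7% of the gene IDs found in GENCODE M21 had its start and end, so coordinates are given on GRCm38. In every library 100% of values were whole reads within 0.01 reads. Columns of the authors' own comparison (log2 fold changes, p-values) and their table of selected genes were not used.

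Limma 3.58.1 (R 4.3.3) with a trended prior was fitted to log2(normalized count + 1) over the genes whose mean reached 1. A fold change on this scale understates that of low genes. The other settings were edgeR 4.0.16 and DESeq2 1.42.0 on recovered reads, a pseudocount of 0.1, other filters, TMM factors, a replicate block and each heart left out in turn. All tests were run on simulated data in which 200 genes were changed, each by more than any effector but Ifi44. They recovered 92.5% to 93.5% of these genes and called 7 to 20 unchanged genes. The simulated spread between hearts was a fixed setting that was not fitted to these hearts. Only genes with a mean of at least 50 were changed. The shares recovered therefore do not measure how many such changes the tests find in the real hearts. No simulated heart stood apart in tissue makeup. The genes named were the 9 effectors, the pathway genes by role, relatives and the 8 closest profiles. The members and lists were chosen with earlier results of these data known. An item of the pathway list is not reported here by name. The limma, DESeq2 and edgeR p-values set each group difference against the spread between these hearts, with variances partly shared across genes.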

Additional observations from a re-analysis of the deposited data

How the results depend on the processing

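The 9 effector genes were lower in miR-19a/19b mimic hearts under every one of 14 other settings, 126 values in all, of which 7 had an adjusted p under 0.05. The count of genes called went from 0 in limma to 29 with DESeq2's Wald test (28 lower, 1 higher) and 30 with the edgeR exact test (28 lower, 2 higher), and it ranged from 0 to 515 with a heart left out, the highest without miR-19a/19b mimic replicate 3. The cause was not tested. Leaving out a heart gave 8 to 9 effectors lower at an unadjusted p under 0.05, a median log2 difference of -0.76 to -0.46, and 23 to 38 pathway genes lower. The log2 difference changed sign when a heart was left out for 5 genes near 0: Ifnar1 (-0.151 to 0.0635), Ifngr2 (-0.0302 to 0.141), Rrm1 (-0.124 to 0.0516), Rrm2 (-0.169 to 0.147) and Cmpk1 (-0.132 to 0.0052). Samhd1 was lower at an unadjusted p under 0.05 in limma, without a filter and without miR-19a/19b mimic replicate 3, and missed it in the other settings. Deviations from the group mean had correlations of 0.0118, -0.279 and -0.409 between same-numbered hearts, and -0.363 to 0.432 between the others. With 3 hearts per group these correlations cannot decide whether the numbers pair the hearts. With the replicate block, 8 effectors and 28 pathway genes were lower at an unadjusted p under 0.05, the effectors' median log2 difference was -0.63 and 0 genes were called.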

Other observations

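Among the 50 tested pathway genes, 10 held a match to the miR-19 seed, counted as for Samhd1, in their longest 3′ UTR. They included Adar, Ddx58, Ifih1, Ifit2, Socs1 and Usp18. Of the 27 that were lower at an unadjusted limma p under 0.05, 8 held one. Among all 459 tested genes with a 3′ UTR that were lower at this threshold, 71 (15.5%) held a match, beside 18.4% of all tested genes with a 3′ UTR. These are counts of letters, with no test.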
